A study of Mus musculus with 22 samples.

Results

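The change in gene expression between day 7 and day 14 of granulation tissue growth was compared between wild type (WT) mice and mice without the collagenase MMP-13. Granulation tissue, the vessel-rich connective tissue that fills a wound, had grown into viscose cellulose sponges placed under the back skin, a scaffold from which the new tissue can be taken out whole. RNA from the tissue was measured on Affymetrix mouse genome arrays, whose probe sets lie near the 3' end of each transcript. The comparison was made on the 12 arrays of the first of 2 hybridization series, out of 22 arrays in all, because only that series held both days. Each of its 4 groups, WT 7 d, WT 14 d, *Mmp13-/-* 7 d and *Mmp13-/-* 14 d, had 3 arrays.

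The mice were 5 to 8 weeks old. The labels give both genotypes a mixed C57BL/6 x 129 background, whereas the series' description states repeated backcrossing into C57BL6 and WT mice bred from the backcrossed heterozygotes. The deletion is present in every cell of the body from birth, so the sponge was colonised by cells that had all developed without the gene. The series' description gives 1 sample from each mouse, so the spread between arrays includes that between animals. A bulk tissue was measured, in which fewer cells of a type and less RNA per cell cannot be told apart.

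MMP-13 is a secreted metalloproteinase that cleaves fibrillar collagens and other matrix proteins, and in rodents it is a main interstitial collagenase of wounds. Over the days covered here, granulation tissue normally passes from an inflamed, strongly vascularising state to one dominated by fibroblasts and myofibroblasts, which lay down and remodel collagen. Signals are RMA values on a log2 scale, so that a difference of 1 is a doubling. For each probe set the week change is the mean signal at 14 d minus that at 7 d, and the interaction is the week change in *Mmp13-/-* tissue minus the week change in WT tissue. A negative interaction therefore means that a signal rose less, or fell more, without MMP-13.

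The labels were checked on *Mmp13* itself. Its log2 signals on replicates 1, 2 and 3 were 11.09, 10.72 and 10.26 in WT tissue at 7 d and 11.87, 11.58 and 11.68 at 14 d, against 8.63, 8.61 and 7.87 in *Mmp13-/-* tissue at 7 d and 8.33, 7.91 and 8.51 at 14 d. The highest signal in *Mmp13-/-* tissue, 8.63, was well under the lowest in WT tissue, 10.26. All *Mmp13-/-* signals nonetheless lay above the median signal of all probe sets (4.25), so they are not the level of an absent signal. The source of the remaining signal was not tested. The WT week change was 1.02 (standard error 0.24, adjusted p = 0.0505 from limma) and the *Mmp13-/-* week change -0.12 (standard error 0.24, adjusted p = 0.919).

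Between arrays of a group the correlation of signals was 0.984 to 0.997. WT 7 d replicate 1 stood apart in its vessel and muscle markers. The mean log2 signal of 21 endothelial markers was 5.25 on that array and 6.28 to 7.42 on the other arrays, and that of 22 skeletal muscle markers was 5.32 there, 5.94 on *Mmp13-/-* 7 d replicate 2, 6.28 on *Mmp13-/-* 14 d replicate 3 and 8.00 to 9.59 elsewhere. Keratinocyte markers (24 genes of the epidermis, which is not granulation tissue) had means of 4.79 and 5.17 on WT 14 d replicates 1 and 3 and of 3.72 to 4.19 on the other arrays. List medians that these arrays move by over 1.5 times are given with and without them.

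A few genes had signals that were either high or near the floor, with large differences between genotypes and 1 array that departed from its group. *Ifi202b*, an interferon-activated gene, had log2 signals of 10.47, 10.71 and 10.21 on the *Mmp13-/-* 7 d arrays, 2.71, 3.01 and 9.64 on the *Mmp13-/-* 14 d arrays and 2.71 to 3.44 on all WT arrays. *Npy*, which encodes neuropeptide Y, had signals of 4.48, 8.48 and 8.76 in WT tissue at 7 d, 4.54 to 4.66 in WT tissue at 14 d and 9.26 to 9.93 on all *Mmp13-/-* arrays. The interaction of *Ifi202b* was -5.17 (limma's adjusted p = 0.997) and that of *Npy* was 2.45, and neither passed the adjustment. With each array left out they ran from -7.43 to -3.97 and from 1.69 to 3.83. The values of -7.43 and 3.83 came without *Mmp13-/-* 14 d replicate 3 and WT 7 d replicate 1, the arrays that departed from their groups. Limma's adjusted p-values there (3.06e-06 and 0.000106) follow from leaving out those arrays and are no support for an interaction. The part of the mixed genetic background in such patterns was not tested.

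No probe set of 45037 had an interaction at an adjusted p under 0.05 in limma (0% called, smallest adjusted p = 0.172). At an unadjusted p under 0.05 there were 2181 (4.84%), of which 1063 were positive (2.36%) and 1118 negative (2.48%), and 5% of all probe sets would fall below that value with no interaction anywhere. Single interactions described here are therefore differences that did not pass the adjustment. Among those of more than 1 log2 unit at this unadjusted p, however, 105 were negative (0.233%) and 11 positive (0.0244%). In terms of genes, each taken by its brightest probe set, 69 of 18193 were negative (0.379%) and 5 positive (0.0275%). With each array left out in turn the gene counts ran from 50 to 119 negative and from 6 to 13 positive, the highest without WT 7 d replicate 2 and WT 7 d replicate 3.

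Within each genotype many probe sets passed the test for the week itself. In WT tissue 646 probe sets rose (1.43%) and 449 fell (0.997%) at an adjusted p under 0.05, and in *Mmp13-/-* tissue 254 rose (0.564%) and 320 fell (0.711%). These counts depended on single arrays: with 1 array left out their sums ran from 397 to 1554 in WT and from 128 to 858 in *Mmp13-/-* tissue. The lowest counts came without WT 14 d replicate 3 and *Mmp13-/-* 14 d replicate 3, and leaving out WT 7 d replicate 1 gave both of the highest. Without both keratinocyte-rich WT 14 d arrays, which leaves 1 WT array at 14 d, 20 probe sets were called in WT tissue. Across all probe sets the week changes of the genotypes correlated with r = 0.62, and with r = 0.68 across the 22523 probe sets at or above the median signal, where probe sets are not independent replicates.

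**Figure D1:**
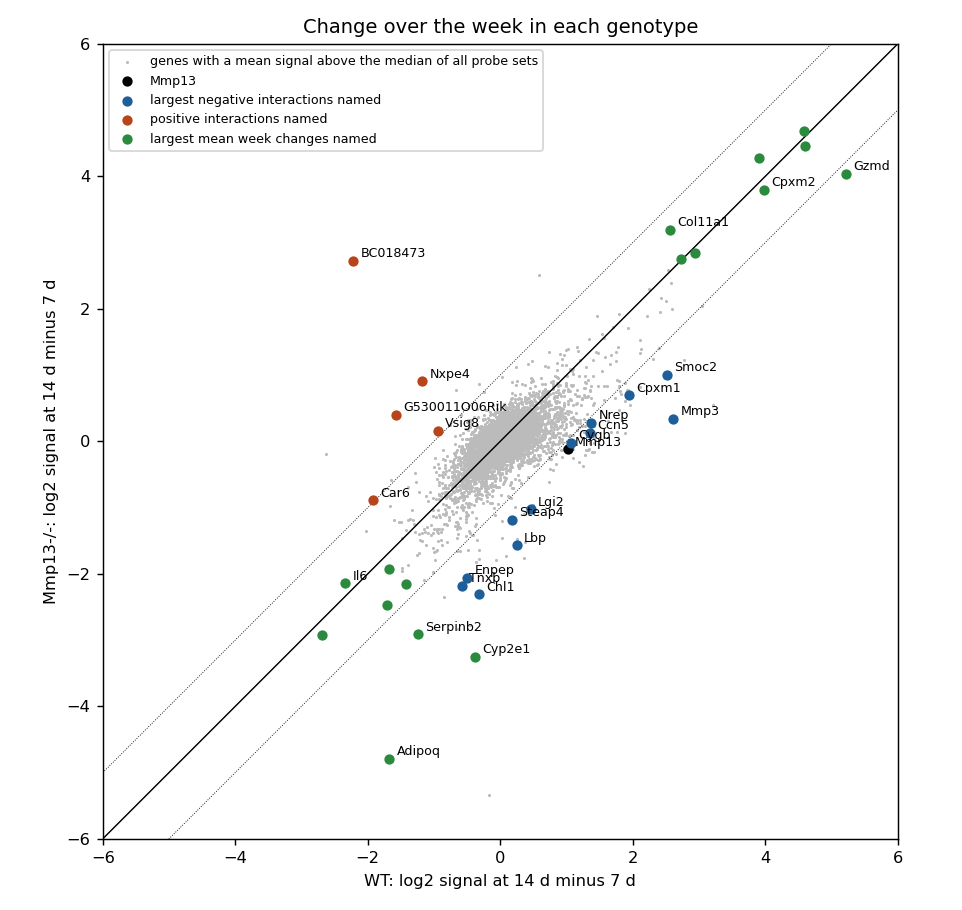
Week change (log2 signal at 14 d minus 7 d) in *Mmp13-/-* tissue against that in WT tissue for each gene with a mean signal above the median of all probe sets. The solid line marks equal changes and the dotted lines an interaction of 1 in either direction. The genes named for negative interactions, such as *Mmp3*, *Smoc2* and *Ccn5*, lie below the lower dotted line, and 5 genes named for positive interactions lie above the upper one.

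Probe sets not chosen by the interaction were then followed. These were the ones whose mean week change over both genotypes passed an adjusted p under 0.05. With 3 arrays in every group this mean and the interaction are uncorrelated by design, but their tests share the variance estimate of each probe set. There were 1447 such risers (3.21%) and 1281 such fallers (2.84%). Of the risers, 907 (62.7%) rose less in *Mmp13-/-* than in WT tissue, with a median interaction of -0.08. Of the fallers, 698 (54.5%) fell less in *Mmp13-/-* tissue, with a median interaction of 0.03. With each array left out the first share ran from 57.5% to 70.3% and the second from 42.3% to 68.4%, so that no direction can be given for the fallers. For comparison, the median interaction of all genes was 0.01. An interaction of more than 1 log2 unit at an unadjusted p under 0.05 was found for 16 risers with the smaller and 0 with the larger rise in *Mmp13-/-* tissue. It was found for 2 fallers with the smaller and 15 with the larger fall. Among all probe sets such interactions were negative for 105 (0.233%) and positive for 11 (0.0244%). The negative direction was thus not particular to these sets. Interactions of any size at that p made up 13.3% of the risers and fallers together, against 4.84% of all probe sets.

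Averaged over the 1447 risers, the log2 signal at 7 d was 6.31, 6.43 and 6.39 on the WT arrays and 6.49, 6.51 and 6.55 on the *Mmp13-/-* arrays. At 14 d it was 7.01, 6.99 and 7.06 on the WT arrays and 6.99, 7.02 and 7.09 on the *Mmp13-/-* arrays. The smaller rise thus came with a higher start, since *Mmp13-/-* tissue had the 3 highest means at 7 d, whereas the genotypes overlapped at 14 d. The 1281 fallers had mean signals of 7.28 to 7.31 on WT and 7.11 to 7.22 on *Mmp13-/-* arrays at 7 d, and of 6.75 to 6.79 and 6.57 to 6.67 at 14 d. Here the *Mmp13-/-* arrays lay below the WT arrays on both days.

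**Figure D2:**
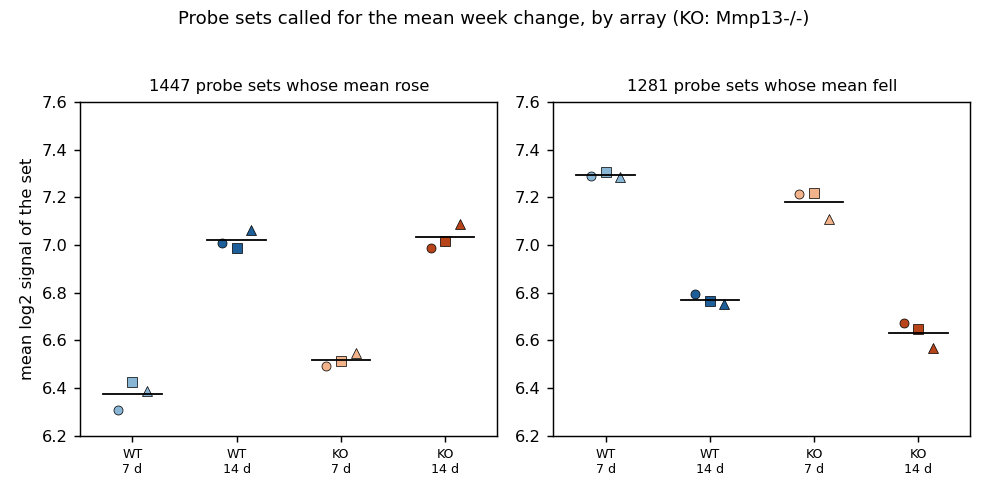
Mean log2 signal on each array of the probe sets called for a rise (left) or a fall (right) in the mean week change of both genotypes. Points are arrays and bars group means. The risers started higher in *Mmp13-/-* tissue (6.49 to 6.55 against 6.31 to 6.43 in WT) and overlapped WT at 14 d, and the fallers were lower in *Mmp13-/-* tissue on both days.

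The 16 genes with the largest mean changes of the week, 8 rises and 8 falls, were looked at in both genotypes. The granzymes *Gzmd*, *Gzme*, *Gzmf* and *Gzmg*, proteases of cytotoxic lymphocytes, rose with mean week changes of 4.63, 2.74, 2.90 and 4.64. At 7 d their group means were 2.36 to 4.09, below the median signal of all probe sets (4.25). The sizes of these rises are thus measured from low signals and are imprecise. *Gzmd* for example had log2 signals of 2.40, 1.91 and 2.76 in WT tissue at 7 d and 8.80, 5.75 and 8.18 at 14 d, against 4.04, 3.57 and 2.11 in *Mmp13-/-* tissue at 7 d and 6.38, 7.33 and 8.12 at 14 d. Every 14 d array was above every 7 d array, and the genotypes overlapped at 14 d.

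*Fmod* (fibromodulin, a collagen-binding proteoglycan), *Igfbp2* (an insulin-like growth factor binding protein), *Cpxm2* (a carboxypeptidase-like protein) and *Col11a1* (a fibril-forming collagen chain) rose by 4.54, 4.09, 3.89 and 2.88 on average. Among the falls, *Il6*, a cytokine of the acute response, had a mean week change of -2.24, *Car4*, a carbonic anhydrase, -2.81, *Hdc*, the histamine-forming enzyme, -1.80, *Ptgis*, prostacyclin synthase, -1.79, and *Ifit1bl1*, an interferon-stimulated gene, -2.09. *Adipoq*, *Cyp2e1* and *Serpinb2* were the only ones of the 16 with an interaction at an unadjusted p under 0.05, and are described with their groups.

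Among the 15 other metalloproteinases measured, *Mmp3* and *Mmp2* had interactions at an unadjusted p under 0.05, both negative, where 3.14% of all genes did so. *Mmp3* (stromelysin 1, which cleaves proteoglycans and activates other metalloproteinases) had log2 signals of 8.02, 9.03 and 7.11 in WT tissue at 7 d and 10.64, 10.65 and 10.71 at 14 d. In *Mmp13-/-* tissue they were 8.36, 8.92 and 9.18 at 7 d and 9.52, 8.59 and 9.37 at 14 d. All WT 14 d arrays lay above all others, while the days overlapped in *Mmp13-/-* tissue. The WT rise was 2.61 (adjusted p = 0.00703 from limma) and the *Mmp13-/-* week change 0.34 (adjusted p = 0.836), an interaction of -2.27 (standard error 0.56, unadjusted p = 0.00173, adjusted p = 0.880).

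*Mmp2* (gelatinase A, made mostly by fibroblasts) had signals of 10.24, 10.14 and 10.10 in WT tissue at 7 d and 10.65, 10.65 and 10.86 at 14 d, against 10.41, 10.14 and 10.02 in *Mmp13-/-* tissue at 7 d and 9.79, 9.84 and 9.87 at 14 d. The genotypes overlapped at 7 d, and at 14 d the *Mmp13-/-* arrays were the lowest of all 12 and the WT arrays the highest. The WT rise was 0.56 (adjusted p = 0.0163) and the *Mmp13-/-* week change -0.36 (adjusted p = 0.146), and the interaction was -0.92 (standard error 0.14, unadjusted p = 4.21e-05, adjusted p = 0.271), at its smallest -0.81 with an array left out. The median interaction of the 15 genes was -0.16, and -0.09 without *Mmp13-/-* 7 d replicate 2. *Mmp9*, the gelatinase of inflammatory cells, had -1.27 (standard error 0.60, unadjusted p = 0.0568), and *Mmp14*, the membrane-bound activator of MMP-2, -0.16 (standard error 0.16). With an array left out *Mmp14* had -0.25 to -0.05, and 0.03 without WT 7 d replicate 1 and both keratinocyte-rich arrays.

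Of 18 proteinase inhibitors, 5 had a negative interaction at an unadjusted p under 0.05 (3.14% of all genes) and 0 a positive one (2.47%). *Serping1* (the C1 inhibitor, which restrains the first complement proteases) had signals of 10.36, 10.60 and 10.44 in WT tissue at 7 d and 11.45, 11.32 and 11.33 at 14 d, against 10.89, 10.98 and 10.91 in *Mmp13-/-* tissue at 7 d and 10.98, 11.11 and 10.79 at 14 d. All 6 *Mmp13-/-* arrays lay above the WT 7 d arrays and below the WT 14 d arrays, with no separation of the days. The WT rise was 0.90 (adjusted p = 0.00138) and the interaction -0.87 (standard error 0.13, unadjusted p = 3.43e-05, adjusted p = 0.258). The other 4 were *Timp1* (the metalloproteinase inhibitor TIMP-1, -0.45), *Slpi* (-0.68), *Tfpi2* (-0.50) and *Serpinb2* (plasminogen activator inhibitor 2, -1.67). Without *Mmp13-/-* 14 d replicate 3 the interactions of *Timp1*, *Slpi* and *Serpinb2* were -0.29, -0.40 and -1.03. *Timp1* and *Serpinb2* fell by 0.79 in *Mmp13-/-* tissue (adjusted p = 0.0141) and by 2.91 (adjusted p = 0.0122), and their WT week changes were -0.34 and -1.25 (adjusted p = 0.220 and 0.208).

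Of 15 complement genes, 4 had negative interactions at that p, against 3.14% of all genes: *Serping1*, the C1 proteases *C1s1* (-0.73, standard error 0.14) and *C1ra* (-0.65, standard error 0.15), and *C2* (-0.87, standard error 0.26). *C1s1* had signals of 9.43, 9.65 and 9.23 in WT tissue at 7 d and 10.05, 10.07 and 10.18 at 14 d, against 9.74, 9.80 and 9.92 in *Mmp13-/-* tissue at 7 d and 9.70, 9.81 and 9.74 at 14 d. As for *Serping1*, all *Mmp13-/-* arrays lay between the WT days. The median interaction of the 15 genes was -0.03, with 8 negative. It was -0.18 without WT 7 d replicate 1, -0.11 without the keratinocyte-rich arrays, -0.20 without *Mmp13-/-* 7 d replicate 3 and 0.06 without *Mmp13-/-* 7 d replicate 2, and its sign differed between these.

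Among 15 ADAMTS proteinases, which cleave proteoglycans and procollagens, 3 had negative interactions at an unadjusted p under 0.05 (3.14% of all genes), *Adamts15* (-0.70), *Adamts4* (-0.80, with this sign in 1 of its 2 probe sets) and *Adamts12* (-0.59), and *Adamts20* a positive one (0.41). *Adamts15* had signals of 7.44 to 7.79 on all WT arrays, 8.02, 7.70 and 7.92 in *Mmp13-/-* tissue at 7 d, and 7.05, 6.90 and 7.22 at 14 d, the lowest of all arrays.

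**Figure D3:**
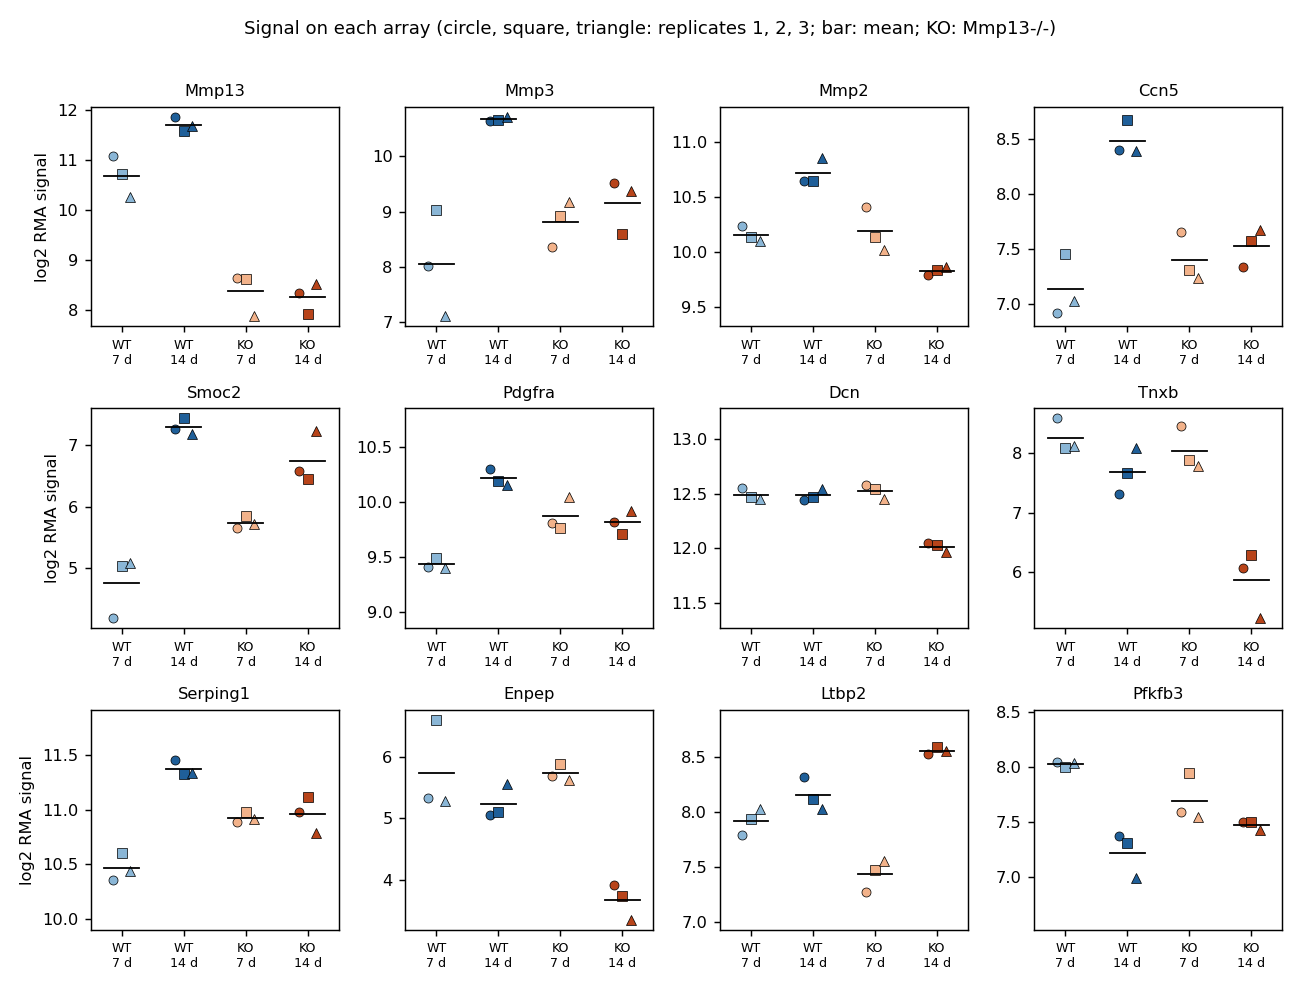
Log2 RMA signal of 12 genes on each of the 12 arrays, with bars at the group means. In *Mmp3*, *Mmp2* and *Ccn5* the WT 14 d arrays lie above all others, in *Dcn*, *Tnxb* and *Enpep* the *Mmp13-/-* 14 d arrays lie below all others, in *Pdgfra* and *Serping1* the *Mmp13-/-* arrays lie between the WT days, and in *Ltbp2* the *Mmp13-/-* 14 d arrays lie above all others.

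Among the 36 lists, the fibroblast markers had the highest share of genes with a negative interaction at an unadjusted p under 0.05. Of 16 genes, 13 had a negative interaction, with a median of -0.56, and 7 of them (43.8% against 3.14% of all genes) reached an unadjusted p under 0.05, none of them positive. Their mean signal per array was 9.42, 9.43 and 9.27 in WT tissue at 7 d and 9.41, 9.56 and 9.62 at 14 d, against 9.55, 9.39 and 9.42 in *Mmp13-/-* tissue at 7 d and 9.19, 9.17 and 9.01 at 14 d. The *Mmp13-/-* 14 d arrays were the lowest of the 12, and 5 markers fell there at an adjusted p under 0.05, where 1.18% of all genes did. With each array left out the median ran from -0.59 to -0.42. It was -0.45 without WT 7 d replicate 1, with 7 genes at an unadjusted p under 0.05. The median was -0.52 without the keratinocyte-rich WT 14 d arrays and -0.50 without all 3, fits that leave 1 WT array at 14 d.

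*Pdgfra*, the platelet-derived growth factor receptor of fibroblasts, had signals of 9.41, 9.49 and 9.40 in WT tissue at 7 d and 10.30, 10.19 and 10.15 at 14 d, against 9.81, 9.76 and 10.04 in *Mmp13-/-* tissue at 7 d and 9.82, 9.71 and 9.92 at 14 d. The *Mmp13-/-* arrays of both days lay between the WT days. It rose in WT tissue by 0.78 (adjusted p = 0.00213) and had a week change of -0.05 in *Mmp13-/-* tissue (adjusted p = 0.899), an interaction of -0.83 (standard error 0.13, unadjusted p = 3.29e-05, adjusted p = 0.258). All 3 of its probe sets had the same sign.

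In other fibroblast markers the *Mmp13-/-* 14 d arrays were the low ones. *Dcn* (decorin, a small proteoglycan on collagen fibrils) had signals of 12.44 to 12.58 on the WT arrays and the *Mmp13-/-* 7 d arrays, and of 12.05, 12.03 and 11.97 on the *Mmp13-/-* 14 d arrays. It fell by 0.51 in *Mmp13-/-* tissue (adjusted p = 0.00643), its WT week change was -0.01, and the interaction was -0.50 (standard error 0.10, unadjusted p = 0.000263, adjusted p = 0.627). *Lum* (lumican, a related proteoglycan) had signals of 11.22 to 11.59 on the WT arrays, of 11.36, 10.86 and 10.94 in *Mmp13-/-* tissue at 7 d, and of 10.32, 10.59 and 10.17 at 14 d, below all others. *Dpt* (dermatopontin), *Cd34* and *Pi16*, also of the fibroblast list, had interactions of -0.77, -1.01 and -1.73 (-1.12 for *Pi16* without WT 7 d replicate 3). *Dpt* and *Cd34* fell by 0.93 and by 1.66 in *Mmp13-/-* tissue (limma's adjusted p = 0.0193 and 0.00444). The study used CD34 to mark blood vessels, so in bulk tissue the fall of *Cd34* cannot be assigned to fibroblasts.

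Of 23 genes of fibrillar collagens and their processing, 4 had negative interactions at an unadjusted p under 0.05 (3.14% of all genes) and 0 positive ones (2.47%), with a median of -0.16 over all 23. These were the procollagen C-proteinase enhancers *Pcolce* (-0.49) and *Pcolce2* (-1.36, and -0.80 without WT 7 d replicate 3), the C-proteinase *Bmp1* (-0.52) and *Col3a1* (-0.21, the type III collagen chain). *Pcolce* had signals of 10.87 to 10.97 in WT tissue at 7 d, 11.40, 11.12 and 11.50 at 14 d, 11.03, 11.13 and 11.15 in *Mmp13-/-* tissue at 7 d, and 10.99 to 11.07 at 14 d. It rose in WT tissue by 0.40 (adjusted p = 0.0486). The chains of type I collagen had interactions of -0.14 for *Col1a1* (standard error 0.25, and -0.255 to 0.04 with an array left out) and -0.11 for *Col1a2* (standard error 0.10).

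Of 21 genes listed with the fibril-associated collagens and small leucine-rich proteoglycans, 6 had negative interactions at that p (3.14% of all genes) and 0 positive ones: *Dcn*, *Lum*, *Dpt*, *Tnxb*, *Col14a1* (-0.86) and *Kera* (-0.28). *Dpt* and *Tnxb* are matrix proteins of neither class. *Dcn*, *Lum* and *Dpt* were already counted among the fibroblast markers, so the shares of these lists are not separate results. The mean signal of *Kera* was below the median of all probe sets. *Tnxb* (tenascin X, which bridges collagen fibrils) had signals of 8.59, 8.09 and 8.12 in WT tissue at 7 d and 7.31, 7.67 and 8.09 at 14 d, against 8.46, 7.89 and 7.78 in *Mmp13-/-* tissue at 7 d and 6.07, 6.29 and 5.22 at 14 d. The *Mmp13-/-* 14 d arrays lay well below all others. *Tnxb* fell by 2.18 in *Mmp13-/-* tissue (adjusted p = 0.00529), its WT week change was -0.58 (adjusted p = 0.380), and the interaction was -1.61 (standard error 0.40, unadjusted p = 0.00196, adjusted p = 0.895).

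Of 19 matricellular genes, whose proteins signal from the matrix rather than build it, 5 had negative interactions at an unadjusted p under 0.05 (3.14% of all genes): *Ccn5*, *Smoc2*, *Vtn* (vitronectin, -0.72), *Thbs3* (thrombospondin 3, -0.79) and *Edil3* (-0.34). *Ccn5*, a CCN-family protein that slows smooth muscle cell growth, had signals of 6.92, 7.45 and 7.03 in WT tissue at 7 d and 8.40, 8.67 and 8.39 at 14 d. In *Mmp13-/-* tissue they were 7.65, 7.31 and 7.24 at 7 d and 7.34, 7.57 and 7.67 at 14 d. The WT 14 d arrays lay above all others and the *Mmp13-/-* days overlapped. *Ccn5* rose in WT tissue by 1.35 (adjusted p = 0.00213), its *Mmp13-/-* week change was 0.13 (adjusted p = 0.845), and the interaction was -1.23 (standard error 0.22, unadjusted p = 0.000131, adjusted p = 0.493).

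*Smoc2*, a calcium-binding matrix protein, showed the other form, a higher start. Its signals were 4.19, 5.03 and 5.08 in WT tissue at 7 d and 7.26, 7.43 and 7.17 at 14 d, against 5.65, 5.85 and 5.71 in *Mmp13-/-* tissue at 7 d and 6.57, 6.44 and 7.22 at 14 d. At 7 d the *Mmp13-/-* signals exceeded those of WT on every array, and at 14 d the genotypes overlapped in 1 array. The WT rise was 2.52 (adjusted p = 0.000714), the *Mmp13-/-* week change 1.01 (adjusted p = 0.0690) and the interaction -1.51 (standard error 0.33, unadjusted p = 0.000718, adjusted p = 0.735). The median of the 19 genes was -0.32, -0.15 without WT 7 d replicate 1 and -0.62 without WT 7 d replicate 3.

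Of 15 elastic fibre genes 11 had a negative interaction, with a median of -0.30. At an unadjusted p under 0.05, 2 were negative and 1 positive, against 3.14% and 2.47% of all genes. The median was -0.15 without WT 7 d replicate 1, -0.45 without WT 7 d replicate 3 and -0.19 without the keratinocyte-rich arrays. *Fbln1* (fibulin 1) and *Mfap2* (a microfibril glycoprotein) had negative interactions, -0.67 and -0.50, although both rose in WT tissue (1.22 and 0.91, adjusted p = 0.000650 and 0.00318) and *Fbln1* also in *Mmp13-/-* tissue (0.55, adjusted p = 0.0397). *Ltbp2*, a microfibril protein of the latent TGF-beta binding family, went the other way. Its signals were 7.79, 7.94 and 8.03 in WT tissue at 7 d and 8.32, 8.12 and 8.03 at 14 d, against 7.27, 7.47 and 7.56 in *Mmp13-/-* tissue at 7 d and 8.53, 8.59 and 8.56 at 14 d. The *Mmp13-/-* arrays were the lowest of all at 7 d and the highest at 14 d. *Ltbp2* rose in *Mmp13-/-* tissue by 1.13 (adjusted p = 0.00108), its WT week change was 0.24 (adjusted p = 0.292), and its interaction was 0.89 with a standard error of 0.14 (limma's unadjusted p = 5.04e-05, adjusted p = 0.272), or 0.81 to 0.97 with each array left out.

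Basement membrane genes, which encode the sheet under vessels and around muscle and fat cells, had a median interaction of -0.28, with 19 of 21 negative. The laminin chains *Lama2* (-0.47), *Lama4* (-0.51, with this sign in 1 of its 2 probe sets) and *Lamc1* (-0.40) and the linker *Nid1* (-0.45) reached an unadjusted p under 0.05, 4 of 21 against 3.14% of all genes. *Nid1* had signals of 10.33, 10.38 and 10.51 in WT tissue at 7 d and 10.48, 10.64 and 10.82 at 14 d, against 10.70, 10.57 and 10.63 in *Mmp13-/-* tissue at 7 d and 10.40, 10.49 and 10.37 at 14 d. Its *Mmp13-/-* arrays were above WT at 7 d, and the genotypes overlapped in 1 array at 14 d. Without WT 7 d replicate 1 the list's median was -0.14, with 17 of 21 negative.

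Vessel markers gave the most negative medians of the 36 lists, and leaving out that array moved them. Of 21 endothelial markers 19 were negative, with a median of -0.86, and of 10 pericyte markers (cells that wrap small vessels) 9 were negative, with a median of -0.92. Without WT 7 d replicate 1 the medians were -0.40 and -0.50, with 18 and 9 negative, and with that array and both keratinocyte-rich arrays left out they were -0.26 and -0.43. Endothelial genes at an unadjusted p under 0.05 were *Sox17* (-1.61), *Plvap* (-1.45), *Emcn* (-1.43) and *Eng* (-0.37), and pericyte genes *Abcc9* (-1.57), *Notch3* (-1.12) and *Kcnj8* (-0.94). These were 4 of 21 and 3 of 10, against 3.14% of all genes. Without WT 7 d replicate 1, 3 endothelial genes and 1 pericyte gene were negative at that p.

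*Plvap*, a protein of the endothelial diaphragms, had signals of 6.50, 8.36 and 7.78 in WT tissue at 7 d and 8.56, 8.67 and 9.41 at 14 d, against 8.06, 8.51 and 8.62 in *Mmp13-/-* tissue at 7 d and 8.37, 8.04 and 8.42 at 14 d. The lowest value is that of WT 7 d replicate 1, and the highest that of WT 14 d replicate 3. The *Mmp13-/-* days overlapped. Without WT 7 d replicate 1 the interactions of *Plvap*, *Sox17*, *Emcn*, *Notch3* and *Abcc9* were -0.93, -1.04, -0.80, -0.67 and -0.84. The mean of the skeletal muscle list moved the same way on that array, and the muscle list's median interaction of -0.50 became 0.70 without it, -1.48 without *Mmp13-/-* 7 d replicate 2 and -0.17 without the keratinocyte-rich arrays. The part of muscle or vessel content in the vessel result was not tested.

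**Figure D4:**
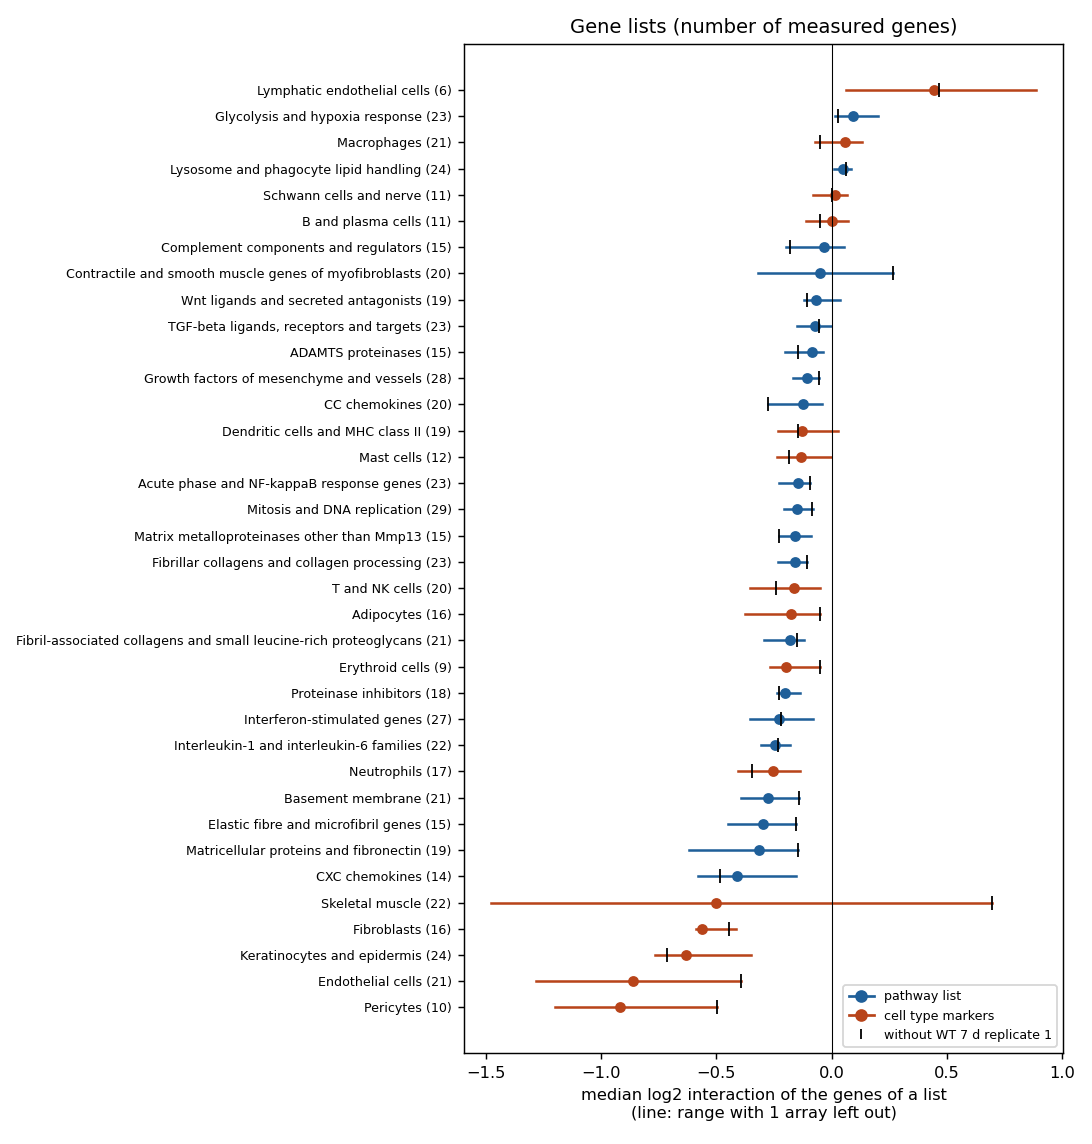
Median interaction of each of the 36 gene lists (points, with the number of genes), with the lowest and highest median when 1 of the 12 arrays is left out (lines) and the median without WT 7 d replicate 1 (ticks). Fibroblast markers stay between -0.59 and -0.42, whereas the endothelial, pericyte and muscle medians move towards or past 0 without that array.

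Keratinocyte markers had a median of -0.63, with 23 of 24 negative and 7 at an unadjusted p under 0.05, against 3.14% of all genes. Among the 7 were the desmosomal genes *Dsg1a* (-0.66) and *Dsp* (-2.15) and the keratins *Krt1* (-1.03) and *Krt10* (-1.49). Only 8 of the 24 had a mean signal at or above the median of all probe sets (4.25). *Dsg1a*, *Dsp* and *Krt1* lay below it, so their differences are between low signals. *Dsg1a* had signals of 2.21, 1.95 and 2.18 in WT tissue at 7 d and 2.89, 2.28 and 2.66 at 14 d, against 2.20, 2.22 and 2.15 in *Mmp13-/-* tissue at 7 d and 2.07, 1.94 and 2.06 at 14 d. The higher WT 14 d values are on the arrays with the high marker means. Without these 2 arrays, which leaves 1 WT array at 14 d, the list's median was -0.02, with 12 of 24 negative. Leaving out replicate 3 alone gave -0.35, with -1.25 for *Dsp*, and *Krt10* was -0.86 without replicate 1 and *Krt1* -1.55 without replicate 2.

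**Figure D5:**
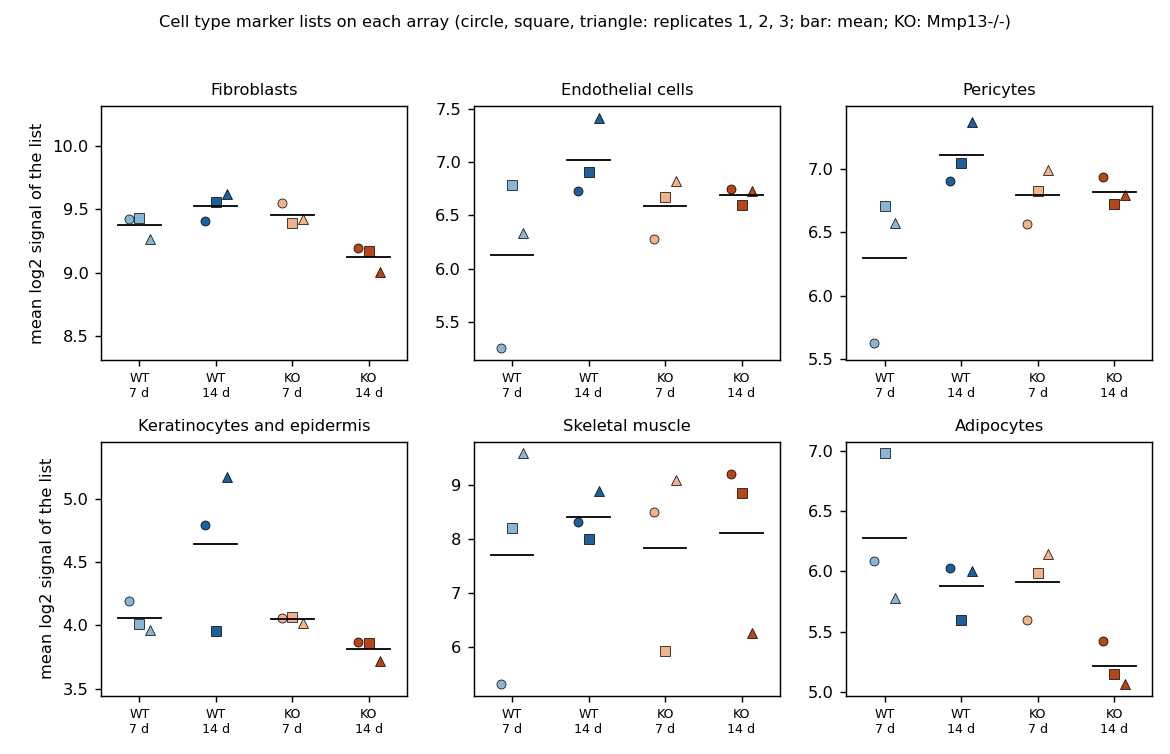
Mean log2 signal of 6 cell type marker lists on each array, with bars at the group means. Fibroblast and adipocyte means are lowest on the *Mmp13-/-* 14 d arrays, endothelial and pericyte means are lowest on WT 7 d replicate 1 (5.25 and 5.63), keratinocyte means are high on WT 14 d replicates 1 and 3, and skeletal muscle means vary between arrays of every group but WT 14 d.

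The fat cell genes were uneven. *Adipoq*, which encodes the fat cell hormone adiponectin, had signals of 9.30, 10.63 and 7.84 in WT tissue at 7 d and 8.51, 6.65 and 7.59 at 14 d, against 7.18, 9.06 and 8.96 in *Mmp13-/-* tissue at 7 d and 4.70, 2.52 and 3.60 at 14 d. The *Mmp13-/-* 14 d arrays lay far below all others. *Adipoq* fell by 4.79 in *Mmp13-/-* tissue (adjusted p = 0.0139), its WT week change was -1.67 (adjusted p = 0.336), and the interaction was -3.12 (standard error 1.09, unadjusted p = 0.0144, adjusted p = 0.997). *Cyp2e1*, a cytochrome P450 that fat also expresses, had an interaction of -2.88 (standard error 0.90), with *Mmp13-/-* 14 d signals of 4.73, 4.15 and 3.55 against 5.91 to 8.89 on all other arrays. The list of 16 adipocyte genes had a median of -0.18 with 9 negative. It was -0.05 without WT 7 d replicate 1, -0.38 without WT 7 d replicate 2 and -0.04 without the keratinocyte-rich arrays. The means of that list were 5.42, 5.15 and 5.06 on the *Mmp13-/-* 14 d arrays, against 5.60 to 6.98 on the others.

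Single genes with large negative interactions outside the matrix groups had several roles. *Steap4* (a metalloreductase) had signals of 7.95, 8.79 and 8.73 in WT tissue at 7 d, 8.60 to 8.77 at 14 d, 9.01, 8.84 and 9.45 in *Mmp13-/-* tissue at 7 d, and 7.85, 7.82 and 8.08 at 14 d. It fell by 1.18 in *Mmp13-/-* tissue (adjusted p = 0.0202) with a WT week change of 0.18, an interaction of -1.36 (standard error 0.29). *Enpep* (the aminopeptidase that processes angiotensin) fell by 2.06 in *Mmp13-/-* tissue (adjusted p = 0.00838), to 3.92, 3.74 and 3.35, against 5.06 to 6.60 on all other arrays. *Chl1* (a neural cell adhesion molecule) fell by 2.31 (adjusted p = 0.0156), to 7.03, 6.68 and 6.24, against 7.43 to 9.22 elsewhere, though only 2 of its 4 probe sets had the same sign. *Lbp* (the lipopolysaccharide binding protein) and *Lgi2* had interactions of -1.82 and -1.49, with week changes in *Mmp13-/-* tissue of -1.57 and -1.02 (adjusted p = 0.0521 and 0.0751).

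*Cpxm1*, *Nrep* and *Cygb* rose in WT tissue by 1.95, 1.37 and 1.06 (adjusted p = 0.00138, 0.00371 and 0.0151). *Cpxm1*, a secreted carboxypeptidase-like protein, had signals of 8.33, 8.72 and 7.94 in WT tissue at 7 d and 10.22, 10.08 and 10.54 at 14 d, against 9.06, 9.49 and 9.17 in *Mmp13-/-* tissue at 7 d and 10.18, 9.61 and 10.01 at 14 d. *Mmp13-/-* tissue started higher, without overlap at 7 d and with overlap at 14 d, as for *Smoc2*. *Nrep* likewise had 9.08, 8.73 and 8.77 in *Mmp13-/-* against 7.66, 8.22 and 8.08 in WT tissue at 7 d, and 9.11, 8.96 and 9.34 against 9.15, 9.19 and 9.74 at 14 d. *Cygb* (cytoglobin, a globin of fibroblasts) had an interaction of -1.09 (standard error 0.27).

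Among genes of inflammation, 6 of 23 acute phase and NF-kappaB response genes fell in WT and 8 in *Mmp13-/-* tissue at an adjusted p under 0.05, as did 1.52% and 1.18% of all genes. Of the 23 genes, 19 had a negative interaction, with a median of -0.15, and 5 reached an unadjusted p under 0.05: *Lcn2* (lipocalin 2, -1.46), *Saa3* (serum amyloid A3, -0.89), *Saa2* (-0.63), *Hp* (haptoglobin, -1.03) and *Sod2* (-0.38), against 1 positive, *Tnfaip3* (0.26), where 3.14% and 2.47% of all genes did so. The list's median was -0.10 without WT 7 d replicate 1 and -0.23 without WT 14 d replicate 3, and the interaction was -0.24 for *Sod2* without *Mmp13-/-* 14 d replicate 3 and -0.37 for *Saa2* without *Mmp13-/-* 7 d replicate 3. *Saa3* had signals of 12.11, 12.14 and 11.81 in WT tissue at 7 d and 11.72, 11.65 and 11.61 at 14 d, against 12.27, 12.46 and 12.62 in *Mmp13-/-* tissue at 7 d and 11.48, 11.42 and 10.70 at 14 d. The *Mmp13-/-* arrays were the highest at 7 d and the lowest at 14 d. *Saa3* and *Lcn2* fell by 1.25 and by 1.82 in *Mmp13-/-* tissue (adjusted p = 0.00847 and 0.0129), and their WT week changes were both -0.36 (adjusted p = 0.387 and 0.626).

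*Il33*, an alarmin cytokine of stromal and endothelial nuclei, had signals of 8.61 to 9.02 on the WT arrays, of 9.33, 10.03 and 9.54 in *Mmp13-/-* tissue at 7 d, and of 8.47, 8.78 and 8.62 at 14 d. It was thus high at 7 d in *Mmp13-/-* tissue and within the WT range or just under it at 14 d, with a fall of 1.01 (adjusted p = 0.0156) and its interaction was -0.91 with a standard error of 0.23 (limma's unadjusted p = 0.00228). Of 14 CXC chemokines, 10 were negative with a median of -0.41 (-0.11 without the keratinocyte-rich arrays and -0.16 without *Mmp13-/-* 14 d replicate 3). *Cxcl12* (-0.92) and *Cxcl5* (-0.49) were negative at an unadjusted p under 0.05, against 3.14% of all genes. *Cxcl12*, the chemokine of stromal cells, rose in WT tissue by 1.21 (adjusted p = 0.0187) and had a week change of 0.28 in *Mmp13-/-* tissue (adjusted p = 0.728). Of 20 CC chemokines 17 were negative, with a median of -0.12 and 1, *Ccl11* (eotaxin, -1.46), at that p (3.14% of all genes). Without WT 7 d replicate 1 the median was -0.28, with 19 negative and 4 at that p, and without WT 7 d replicate 3 it was -0.04. Of 27 interferon-stimulated genes 23 were negative with a median of -0.23, but without the 2 keratinocyte-rich WT arrays 9 were negative and the median was 0.06. The median was -0.08 without *Mmp13-/-* 7 d replicate 2 and -0.35 without *Mmp13-/-* 7 d replicate 3.

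Of 23 genes of glycolysis and the hypoxia response, 17 were positive, with a median of 0.09, and 3 reached an unadjusted p under 0.05, where 2.47% of all genes did so in this direction. These were *Pfkfb3* (which makes the activator of phosphofructokinase, 0.59), *Hk2* (hexokinase 2, 0.47) and *Ankrd37* (a target of the hypoxia factor HIF-1, 0.70). *Pfkfb3* had signals of 8.05, 8.00 and 8.04 in WT tissue at 7 d and 7.37, 7.31 and 6.99 at 14 d, against 7.59, 7.95 and 7.55 in *Mmp13-/-* tissue at 7 d and 7.50, 7.50 and 7.43 at 14 d. The *Mmp13-/-* arrays lay below the WT arrays at 7 d and above them at 14 d. *Pfkfb3*, *Hk2* and *Ankrd37* fell by 0.81, by 0.52 and by 1.39 in WT tissue (adjusted p = 0.00600, 0.0324 and 0.00703), and their *Mmp13-/-* week changes were -0.22, -0.06 and -0.69 (adjusted p = 0.541, 0.916 and 0.180). Without WT 7 d replicate 1 the list's median was 0.03, with 11 of 23 negative. It was 0.02 without *Mmp13-/-* 7 d replicate 3, 0.20 without WT 14 d replicate 1 and 0.15 without both keratinocyte-rich arrays.

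*Igf1*, the insulin-like growth factor, had an interaction of 0.55 (standard error 0.18). It was the only 1 of 28 growth factor genes at an unadjusted p under 0.05, against 2.47% of all genes in this direction. Its signals were 9.92 to 10.48 on the WT and the *Mmp13-/-* 7 d arrays, and 10.77, 10.75 and 10.90 in *Mmp13-/-* tissue at 14 d, above all others. It rose in *Mmp13-/-* tissue by 0.73 (adjusted p = 0.0203), and its WT week change was 0.18 (adjusted p = 0.583). The 6 lymphatic endothelial markers were all positive, with a median of 0.45 and 0 at that p, and their mean was 7.00 on *Mmp13-/-* 14 d replicate 3 and 6.48 on WT 14 d replicate 3, against 4.91 to 6.04 elsewhere. The median was 0.06 without *Mmp13-/-* 14 d replicate 3, 0.89 without WT 14 d replicate 3 and 0.97 without both keratinocyte-rich arrays.

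Among 23 TGF-beta signalling genes, *Tgfbr3* (the TGF-beta coreceptor betaglycan, -0.50), *Bmp2* (-0.76) and *Eng* (-0.37) were negative at an unadjusted p under 0.05, against 3.14% of all genes. *Smad6*, an inhibitory SMAD, was positive (0.42) at that p, against 2.47% of all genes. The median of the 23 was -0.07, with 14 negative, and ran from -0.15 to -0.002 with each array left out. The secreted Wnt antagonists *Sfrp2*, *Sfrp4* and *Sfrp5* had interactions of -0.81, -1.45 and -0.36, the only 3 of 19 Wnt genes at that p, against 3.14% of all genes. *Sfrp5* rose in WT tissue by 0.34 (adjusted p = 0.0383) and had a week change of -0.02 in *Mmp13-/-* tissue. Of 29 mitosis genes 23 were negative, with a median of -0.15, and *Birc5* (survivin, -0.46), *Cdc20* (-0.42) and *Kif20a* (-0.51) were negative and *Cdc6* (0.36) positive at that p, against 3.14% and 2.47% of all genes. The median was -0.08 without WT 7 d replicate 1 or without *Mmp13-/-* 14 d replicate 1, and *Kif20a* had -0.33 without *Mmp13-/-* 7 d replicate 1. *Birc5* had signals of 6.62, 6.77 and 6.74 in WT and 7.27, 7.16 and 7.35 in *Mmp13-/-* tissue at 7 d, and 6.83, 6.95 and 7.16 against 6.98, 7.14 and 7.10 at 14 d, a separation of the genotypes at 7 d alone.

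Contractile genes of myofibroblasts had a median interaction of -0.05, with 1 of 20, *Lmod1* (-0.36), at an unadjusted p under 0.05 (3.14% of all genes). *Tagln*, the smooth muscle protein SM22, rose in both genotypes, by 1.79 in WT and by 1.92 in *Mmp13-/-* tissue (adjusted p = 0.0347 and 0.0366). *Acta2* (smooth muscle actin) had signals of 9.42, 10.44 and 11.13 in WT tissue at 7 d and 11.35, 11.13 and 11.82 at 14 d, against 10.40, 10.22 and 10.81 in *Mmp13-/-* tissue at 7 d and 11.71, 11.57 and 11.42 at 14 d, and its week change passed the test in neither genotype (adjusted p = 0.130 in WT and 0.187 in *Mmp13-/-* tissue). The list's median was 0.27 without WT 7 d replicate 1, -0.32 without WT 7 d replicate 3 and 0.08 without the keratinocyte-rich arrays. Macrophage markers had a median of 0.06 (-0.05 without WT 7 d replicate 1 and -0.07 without *Mmp13-/-* 7 d replicate 3), with 13 of 21 positive and 8 negative. *Cd163*, a scavenger receptor of resident macrophages, and *Chil3*, a chitinase-like protein of alternatively activated ones, had interactions of -1.45 and -1.74. They were the only 2 of the 21 at an unadjusted p under 0.05, against 3.14% of all genes in this direction, and the list as a whole did not share it. *Cd163* had signals of 7.16, 7.36 and 6.74 in *Mmp13-/-* tissue at 7 d, above the 4.71 to 6.32 of all other arrays.

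Only 5 genes met the rule for a large positive interaction. *Car6*, a secreted carbonic anhydrase, had signals of 6.20, 5.61 and 5.45 in WT tissue at 7 d and 3.89, 3.74 and 3.85 at 14 d, against 5.39, 4.82 and 5.05 in *Mmp13-/-* tissue at 7 d and 4.40, 4.16 and 4.04 at 14 d. It fell by 1.93 in WT and by 0.89 in *Mmp13-/-* tissue (adjusted p = 0.000854 and 0.0466), an interaction of 1.04 (standard error 0.27, unadjusted p = 0.00216, adjusted p = 0.895). The *Mmp13-/-* arrays were below WT at 7 d and above WT at 14 d. *Nxpe4*, *G530011O06Rik* and *Vsig8* had interactions of 2.09, 1.98 and 1.09. *BC018473* had 4.95 (standard error 1.74), with this sign in 1 of its 2 probe sets. Its group means at 7 d were 8.63 in WT and 3.06 in *Mmp13-/-* tissue, the latter below the median of all probe sets. At 14 d its signals were 7.76, 8.19 and 3.28 in WT and 7.33, 6.93 and 3.10 in *Mmp13-/-* tissue, so that 1 array of each genotype was low on that day.

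The second hybridization series, which used less RNA and another labelling kit, held 1 WT and 1 *Mmp13-/-* array at 14 d. This pair was not in the fit that gave the interactions. It was not independent of the choice of genes, because genes and lists were chosen with earlier results of these data known. The study's own 14 d comparison included the pair. The second series has no 7 d arrays, so only the genotype difference at 14 d could be set beside the first series, without a test. Of the 12 genes named for large negative interactions, 10 had a difference of the same sign in this pair as in the first series (83.3%), against 53.5% of all genes at or above the median signal. The 12 were chosen by an interaction that includes the first series' 14 d difference. That difference ran from -1.83 for *Tnxb* to -0.22 for *Nrep*. All genes were not so chosen, so the shares are not like for like. A shared sign at 14 d also does not speak to the change over the week. The pair's *Mmp13-/-* minus WT differences were -1.58 for *Mmp3*, -0.91 for *Cpxm1*, -0.88 for *Chl1*, -0.69 for *Ccn5* and -0.63 for *Smoc2*. They were 0.26 for *Lbp* and 0.35 for *Enpep*, the 2 with the other sign. Over the 98 genes other than *Mmp13* whose interaction is given here, 70 had the same sign as in the first series (71.4%), 26 the opposite sign and 2 a difference of 0.00. Those of the same sign included *Dcn* (-0.29), *Lum* (-0.67) and *Ltbp2* (0.62), and those of the opposite sign *Sfrp4* (0.67 against -1.32), *Pi16* (0.58 against -1.16), *Pfkfb3* (-0.44 against 0.25), *Bmp2* (0.18 against -0.46), *Cd34* (0.14 against -1.12), *C1s1* (0.08 against -0.35) and *Dpt* (0.02 against -0.95).

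*Adipoq* and *Cyp2e1* had differences of 3.05 and 2.25 in this pair, opposite to the first series (-3.98 and -2.65). Of the 5 genes with large positive interactions, 1 kept its sign (20.0%). Of the 61 genes at or above the median signal with an interaction below -1 at an unadjusted p under 0.05, 41 had the same sign (67.2%). All genes at or above the median signal had 53.5%. The 61 include the deleted gene *Mmp13* itself, and they were chosen in the same way as the 12.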

How the data were processed

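RNA from granulation tissue was hybridized to 22 arrays in 2 series of 12 and 10. Per the labels, the authors deposited RMA-normalized log2 intensity values for 45101 probe sets, and the scanner files were not used here. RMA forces the arrays to a common distribution, so a shift of all genes cannot be seen.

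After 64 control probe sets were left out, 45037 were tested on the 12 arrays of the first series with limma 3.58.1 in R 4.3.3 (a model of 4 group means, lmFit and eBayes, 8 residual degrees of freedom). P-values are two-sided and adjusted by Benjamini-Hochberg over all probe sets, with a threshold of 0.05. Groups of 3 against 3 would allow no exact permutation p under 0.1. The number of arrays limits the precision. No mapping other than that of the labels was used for groups.

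The platform annotation gave 1 gene symbol for 34945 probe sets, several for 932 and none for 9160, and a gene was represented by its brightest probe set of 18193 genes. Named genes were *Mmp13*, genes called for the interaction, up to 12 genes in each direction with the smallest unadjusted p among those with an interaction over 1 log2 unit and a signal above the median, the 8 largest mean rises and falls, and up to 3 members of each of 36 gene lists by unadjusted p. Other genes in the text, among them *Ifi202b*, *Npy*, *Mmp9*, *Mmp14*, *Col1a1*, *Col1a2*, *Acta2*, *Tagln* and further members of lists, were chosen after their values were seen. Genes and lists were chosen with earlier results of these data known. Among genes whose interaction is given, *Adamts20*, *Cdc6*, *Dsg1a*, *Dsp*, *Edil3*, *Kera*, *Krt1*, *Saa2* and *Smad6* had a mean signal below the median of all probe sets. The fit was tested on simulated data. Alternatives changed the arrays fitted, the normalization, the filter on dim probe sets, the variance model and the probe set chosen, left out each array, or added a replicate block. An alternative without WT 7 d replicate 1 and both keratinocyte-rich WT 14 d arrays was chosen after seeing the data.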

Additional observations from a re-analysis of the deposited data

How the results depend on the processing

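The count of 0 called interactions was 1 with array weights, 1 without both keratinocyte-rich WT 14 d arrays, 3 without these and WT 7 d replicate 1 (the alternative chosen after seeing the data), and 0 to 4 with each array left out. Interactions at an unadjusted p under 0.05 numbered 1032 with all 22 arrays and the series as a term, 1244 with dim probe sets left out, 1310 without both keratinocyte-rich arrays and 1689 to 3055 with each array left out. Those above 1 numbered 63 in the added alternative and 9 to 47 (the latter without WT 7 d replicate 1) with each array left out, and those below -1 numbered 82 to 186 (the latter without WT 7 d replicate 2). Calls of the WT week numbered 20 without both keratinocyte-rich arrays, 57 in the added alternative and 397 to 1554 with each array left out. Calls of the *Mmp13-/-* week numbered 283 with all 22 arrays, 1181 with array weights, 318 without both keratinocyte-rich arrays and 128 to 858 with each array left out. Calls of the mean week numbered 1547 with all 22 arrays, 806 without both keratinocyte-rich arrays, 1293 in the added alternative and 1694 to 3639 with each array left out.

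The share of these with a smaller change in *Mmp13-/-* tissue was 58.8% as reported, 67.5% without both keratinocyte-rich arrays, 73.6% in the added alternative and 51.1% to 67.9% with each array left out. Among risers it was 70.2% with 14 arrays, 71.3% with 22, 70.5% without both keratinocyte-rich arrays, 72.4% in the added alternative and 57.5% to 70.3% with each array left out. Among fallers it was 74.9% in the added alternative and 42.3% to 68.4% with each array left out. With unequal groups the mean change and the interaction are no longer uncorrelated. The interaction changed sign for *Col1a1* with array weights (0.033) and with an array left out (-0.255 to 0.04), for *Krt1* without both keratinocyte-rich arrays (0.0167), and for *Mmp14* in the added alternative (0.03). With the mean of all probe sets of a gene in place of the brightest, the interaction was smaller by over 1.5 times for *Adamts4* (-0.225), *Adamts12* (-0.3233), *Chl1* (-0.5433), *Dcn* (-0.31), *Edil3* (-0.0944), *Pi16* (-1), *Igf1* (0.2775), *Lama4* (-0.2133), *Lbp* (-1.135), *Vtn* (-0.395) and *BC018473* (2.47), and larger by over 1.5 times for *Col1a1* (-0.295), *Col1a2* (-0.2944) and *Col3a1* (-0.34). The cause was not tested. No general pairing by replicate number was seen: deviations from the group means correlated with r of -0.26 to 0.50 over 18 same-numbered pairs (median -0.03). Replicate 3 of WT 7 d, WT 14 d and *Mmp13-/-* 7 d correlated with r of 0.28 to 0.50. Each of these had a negative r with *Mmp13-/-* 14 d replicate 3 (-0.26 to -0.07). The median does not speak to single pairs. With the replicate block 0 interactions were called and 2447 had an unadjusted p under 0.05. With dim probe sets left out 0 interactions were called, so the low signals alone did not set that count.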

Other observations

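Galc, which encodes a lysosomal galactosidase, was higher on every *Mmp13-/-* array than on the WT arrays of the same day, and WT 7 d replicate 1 stood above the other WT 7 d arrays. Its log2 signals were 6.70, 3.53 and 3.15 in WT tissue at 7 d and 7.92, 7.18 and 7.91 at 14 d, against 7.77, 7.86 and 8.12 in *Mmp13-/-* tissue at 7 d and 8.35, 8.33 and 8.74 at 14 d. Only 1 of its 3 probe sets had the sign of the brightest. In the pair of 14 d arrays of the second series *Ifi202b* had a *Mmp13-/-* minus WT difference of 6.64 and *Npy* of 4.67.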
